A study of Homo sapiens with 12 samples.

Results

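The binding sites of PAX5 in L428-PAX5 cells were compared with those in Raji cells from 4 peak lists, 1 for each of 2 libraries per line. Peaks of the 4 lists that overlapped or touched were merged into 11352 regions, and 4057 of these fell into 1 of 3 classes. Regions with a peak in both Raji libraries and in neither L428-PAX5 library are called Raji-only regions here, and there were 1689 of them. Regions with a peak in both L428-PAX5 libraries and in neither Raji library are called L428-PAX5-only regions, and there were 2129. The third class, called shared regions, had a peak in all 4 libraries and numbered 239.

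PAX5 is a transcription factor that binds DNA through its paired domain. It is known for committing lymphoid progenitors to the B-cell lineage and for holding that identity in mature B cells, where it activates genes of the B-cell receptor and its signalling and represses genes of other lineages. The tumour cells of classical Hodgkin lymphoma descend from B cells yet express little of this programme, whereas Burkitt lymphoma keeps a mature B-cell phenotype.

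The series holds 12 samples of 3 lymphoma cell lines, in which chromatin immunoprecipitation followed by sequencing was done with an antibody against PAX5 and with input DNA kept beside it. Raji, an established Burkitt lymphoma line, was grown without treatment. L428-PAX5 derives from the established Hodgkin lymphoma line L428, was treated with mifepristone, and had the overproduction of PAX5 switched on 48 h before fixation. Each of both lines had 2 immunoprecipitated libraries, from cells fixed for 20 min in 1% formaldehyde, with 10 µg of antibody per precipitation. The lines thus differ together in tumour type, in the mifepristone treatment, in the source of PAX5 and in the medium, to which HEPES was added for L428-PAX5, and these cannot be told apart. Uninduced L428 cells were not analysed here. Whether a line's libraries stem from separate cultures, and whether L428-PAX5 is 1 clone, is not in the labels, so the spread between libraries may be technical. The identity of the lines could not be checked against marker genes in lists of positions.

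The list of Raji 1 was the shortest. Raji 2 had 4960 peaks (1.89 times as many as Raji 1), L428-PAX5 1 had 6201 (2.37 times) and L428-PAX5 2 had 3252 (1.24 times). The longer list belonged to the second library in Raji and to the first in L428-PAX5, and the ranges of both lines overlapped. Median peak width was 461 and 465 bp in the Raji lists and 542 and 505 bp in those of L428-PAX5. Each peak carries a p-value from the authors' peak caller, given here as −log10 p. It moves with the depth of a library, which is unknown, so values of different libraries are not on 1 scale and strength was ranked within each list. A percentile is the rank of a peak within its own list, with 100 for the lowest p. Because list length sets how many regions can be found, the class counts, overlaps and shares were repeated with every list cut to its lowest p-values at the length of the Raji 1 list, and these are called equal-length lists. Windows, centre distances and single regions are given for the deposited lists only.

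The question was how far PAX5, when overproduced in Hodgkin cells, occupied the sites it occupies in a Burkitt line. Most reproducible sites of either line had no peak in the other. Raji-only regions made up 14.9% of the 11352 merged regions, L428-PAX5-only regions 18.8% and shared regions 2.11%. Of the 2182 regions found in both Raji libraries, 1689 (77.4%, exact 95% interval 75.6 to 79.1%) lacked any L428-PAX5 peak. Of the 2487 regions found in both L428-PAX5 libraries, 2129 (85.6%, 84.2 to 87.0%) had none in Raji. Intervals are exact binomial ones and cover counting error over regions only. With 2 libraries against 2, an exact two-sided permutation test cannot go below 0.33, so no difference between the lines is called by a test. The counts rest on single libraries, in part by construction, since the demand on a region is looser when 1 library is left out. Without Raji 1 there were 4119 Raji-only regions, and without L428-PAX5 2 there were 5372 L428-PAX5-only and 454 shared regions.

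The regions outside the 3 classes were mostly found in a single library. There were 2776 regions in 1 Raji library alone and 3891 in 1 L428-PAX5 library alone. A further 255 regions had a peak in 1 library of each line, 254 in both Raji libraries and 1 of L428-PAX5, and 119 in both L428-PAX5 libraries and 1 of Raji. Of the 254, 215 had their peak in L428-PAX5 1, the longer list, and 39 in L428-PAX5 2. Of the 119, 103 had theirs in Raji 2, again the longer list, and 16 in Raji 1. In equal-length lists the split was nearly even, with 61 and 59 regions for the L428-PAX5 libraries and 25 and 26 for those of Raji.

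With equal-length lists the classes held 1465 Raji-only regions (21.9% of 6681 merged regions), 1375 L428-PAX5-only regions (20.6%) and 151 shared regions (2.26%). The larger number of L428-PAX5-only regions in the deposited lists therefore did not hold at equal length. Part of the Raji-only class at equal length consisted of regions with weaker peaks in the full L428-PAX5 lists: 137 of the 1465 had a peak in a library of L428-PAX5 there. Of the 1375 L428-PAX5-only regions, 36 had a peak in a full Raji list. The Raji 1 list lost nothing to the cut, while those of Raji 2 (4960 peaks), L428-PAX5 1 (6201) and L428-PAX5 2 (3252) were shortened. More L428-PAX5 than Raji peaks could thus reappear, so 137 and 36 do not compare the lines. The cut passes through peaks of close strength. In L428-PAX5 2 the last peak kept had a −log10 p of 5.615 and the first one dropped 5.613, and in Raji 2 and L428-PAX5 1 the peaks on both sides were tied at 8.04 and 8.01.

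Overlap within a line exceeded overlap across lines in every pair of libraries. The Jaccard index, which divides the merged regions that 2 libraries have in common by those that either of them has, was 0.409 for the Raji libraries and 0.361 for those of L428-PAX5. Across lines it was 0.0619 for Raji 1 with L428-PAX5 1, 0.0540 for Raji 1 with L428-PAX5 2, 0.0708 for Raji 2 with L428-PAX5 1 and 0.0540 for Raji 2 with L428-PAX5 2. The mean of these 4 pairs was 0.0602 ± 0.0080 (SD). In equal-length lists the 4 pairs lay between 0.0501 and 0.0544, while the indices within Raji and within L428-PAX5 were 0.502 and 0.435.

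**Figure D1:**
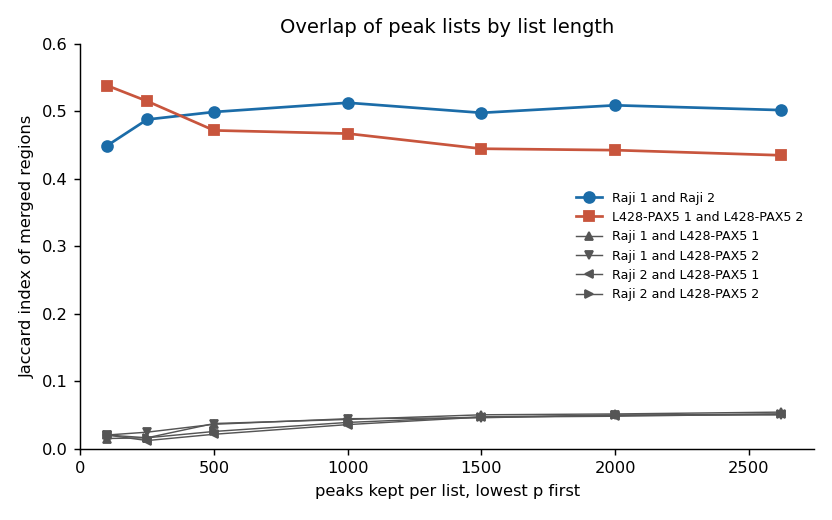
Jaccard index of merged regions (vertical axis) for each pair of libraries when the same number of peaks is kept per list, lowest p first (horizontal axis). Pairs of 1 line stay between 0.435 and 0.538 at every length, and the 4 pairs across lines fall from between 0.0501 and 0.0544 at the full length of Raji 1 to between 0.0152 and 0.0204 with 100 peaks.

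Restricting the lists to stronger peaks lowered the overlap across lines, while the index within a line stayed at 0.435 or more at each list length tried. With the 100 lowest p-values of each list, 58 regions were Raji-only, 67 were L428-PAX5-only and 3 were shared. With the 500 lowest the numbers were 305, 293 and 15, and with the 1000 lowest they were 596, 566 and 44. At 100 peaks the index was 0.449 within Raji and 0.538 within L428-PAX5. Shared regions were also few under a limit on the p-value, which need not be equally strict in libraries of different depth. At a −log10 p of at least 20, there were 121 Raji-only, 102 L428-PAX5-only and 3 shared regions. Few positions were thus among the strongest of both lines.

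The strength of a Raji site went with its presence in L428-PAX5. Reproducible regions of a line were split into 4 classes of equal size by their mean percentile in that line. Ordered from weakest to strongest, the classes of Raji regions had an L428-PAX5 peak in 16.8%, 18.3%, 21.1% and 34.1% of cases, the last with an exact 95% interval of 30.1 to 38.2%. A peak in each of the L428-PAX5 libraries was present in 4.95%, 7.52%, 11.0% and 20.3%. In equal-length lists the shares with any peak were 9.68%, 10.8%, 15.2% and 26.7%. The strongest class stood above the other classes beyond their counting intervals in both settings. Without L428-PAX5 1, 6.59% of the weakest and 22.2% of the strongest Raji class had a peak in L428-PAX5, and 12.6% of all. Without Raji 1, the weakest class was at 10.8%.

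In the opposite direction the shares were flatter. Of the L428-PAX5 regions, 13.7%, 11.1%, 16.6% and 16.2% (13.4 to 19.4%) had a peak in Raji, ordered by rising strength. Peaks in both Raji libraries were found for 8.20%, 7.07%, 10.8% and 12.4%. In equal-length lists the shares with any peak were 8.86%, 14.5%, 14.7% and 13.2%. Without Raji 2, 8.84% of the weakest class were found, and with p at or below 1e-10 the weakest class, at 11.1%, lay above the strongest, at 9.15%. The intervals of the weakest and the strongest class overlapped in the deposited and the equal-length lists, and the difference between the directions was not tested.

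**Figure D2:**
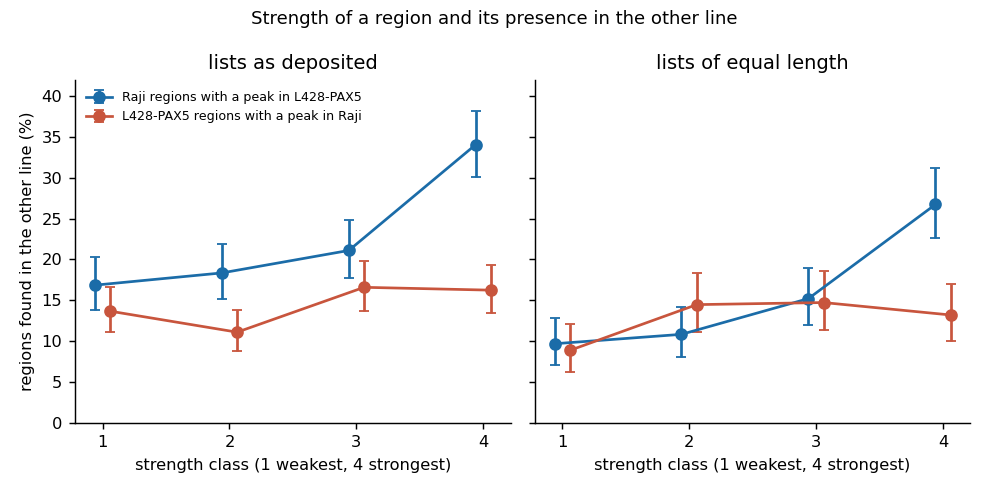
Percent of the reproducible regions of 1 line with a peak in any library of the other (vertical axis) by strength class of the region (horizontal axis, 1 weakest), for lists as deposited and of equal length. Points are shares and bars exact 95% binomial intervals. The share of Raji regions reaches 34.1% and 26.7% in the strongest class, and the share of L428-PAX5 regions stays between 8.86% and 16.6%.

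The gap was widest at the top of the rankings. Of the 50 strongest Raji regions, 28 (56%, exact 95% interval 41.3 to 70.0%) had a peak in L428-PAX5, and 20 had one in both libraries. Of the 50 strongest L428-PAX5 regions, 5 (10%, 3.33 to 21.8%) had a peak in Raji. Among the top 100 the numbers were 53 and 11, and in equal-length lists 44 and 9. The 2 intervals for the top 50 did not overlap. Where a top-100 Raji region was found in L428-PAX5, its median percentile there was 69.3, so that many of the strong Raji sites were middling peaks in the Hodgkin line. The 11 top-100 L428-PAX5 regions found in Raji had a median percentile of 91.7 there.

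The 10 strongest Raji regions show this spread. Of these, 3 were shared, 4 were Raji-only and 3 had a peak in L428-PAX5 1 alone. The region at chr1:174245194-174245658 had a −log10 p of 41.5 in Raji 1, 69.3 in Raji 2 and 7.48 in L428-PAX5 1. The region at chr13:41019476-41020119 had 40.9, 70.2 and 6.62, and the region at chr21:45626616-45627791 had 37.0, 65.5 and 10.6. These 3 regions, named because they fall outside the classes, had no peak in L428-PAX5 2, whose list is the shorter one.

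Positions of single regions are those of the lists, on hg19, and whether starts count from 0 or 1 is not stated in them. Genes and exons are not given, since the gene table at hand belongs to GRCh38.p14 and positions were not converted. In each class the 10 regions with the highest mean percentile are named, and their strength is thus given as a description.

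The Raji-only region with the highest mean percentile was chr7:98270937-98271763, with a −log10 p of 47.5 in Raji 1 and 85.5 in Raji 2. It was 508 kb, centre to centre, from the nearest L428-PAX5 peak. It was followed by chr1:31227471-31228006, with values of 47.8 and 72.2, and by chr10:5882202-5883226, with 51.8 and 64.7. These 3 regions ranked at or above the 99.7 percentile of both Raji lists. The region at chr6:107150059-107150847 had values of 39.3 and 65.7. Next came chr22:35763269-35763744, with 37.5 and 58.6, and chr4:300242-300790, with 36.6 and 67.6. All 10 regions named in this class ranked at or above the 99.0 percentile of both Raji lists.

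The seventh of these regions, chr21:43954945-43955548, had values of 39.5 in Raji 1 and 51.1 in Raji 2, and the centre of the nearest L428-PAX5 peak lay 0.905 kb away, without the peaks touching. The last 3 were chr3:46580231-46580940, chr10:94516887-94517415 and chr13:41163432-41164218, with values of 33.9, 32.0 and 32.4 in Raji 1 and of 62.9, 77.2 and 52.6 in Raji 2. For the 9 regions other than the one on chromosome 21, the nearest L428-PAX5 peak was between 21.9 and 508 kb away.

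The L428-PAX5-only regions included the strongest peak of both L428-PAX5 lists. This was chr2:240513807-240515751, a broad region of 1944 bp with a −log10 p of 220.3 in L428-PAX5 1 and 169.2 in L428-PAX5 2. The nearest Raji peak lay 334 kb away. Next came chr5:3282786-3283576, with values of 155.8 and 123.5, and chr14:106048910-106049513, with 133.0 and 115.0. All 3 ranked at or above the 99.9 percentile of both L428-PAX5 lists.

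The region at chr2:44513466-44514200 had values of 107.7 in L428-PAX5 1 and 80.8 in L428-PAX5 2. The region at chr10:13515295-13516935, 1640 bp wide, had 100.7 and 70.3, and chr2:241137068-241138409 had 94.4 and 79.9. The region at chr7:156733491-156734790 had 98.5 and 65.3. The nearest Raji peak to any of these 4 lay 167 kb away. The last 3 were chr17:25264224-25265580, chr17:3698865-3699528 and chr7:154958354-154958889, with values of 79.7, 92.2 and 70.5 in L428-PAX5 1 and of 70.1, 62.0 and 62.1 in L428-PAX5 2. Over all 10, the nearest Raji peak was between 84.6 and 354 kb away. Of the 10, 7 lay within 5 Mb of a chromosome end, against 2 of the 10 Raji-only and 0 of the 10 shared regions. Over the whole classes the shares were 13.5%, 8.78% and 11.9%, in this order, against 11.1% of all regions. The named regions were picked by strength, and some lay near one another on chromosomes 2 and 7. Their counts thus do not stand for the classes.

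Among shared regions, chr3:126793570-126794552 ranked first. It headed both Raji lists, with a −log10 p of 98.7 and 115.5, and had 64.7 in L428-PAX5 1 and 56.4 in L428-PAX5 2. The region at chr2:47951226-47952232 had values of 55.3 and 82.4 in Raji and of 44.3 and 35.6 in L428-PAX5. In both, the percentile in the 4 lists was between 99.2 and 100. The third, chr9:37408849-37409779, had 24.8 and 37.9 in Raji and 41.5 and 30.0 in L428-PAX5, and so ranked high in all 4 lists too.

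The region at chr2:136964150-136965651 had values of 34.5 and 41.1 in Raji and of 20.4 and 18.4 in L428-PAX5. The region at chr21:18800304-18801256 had 32.7 and 95.5 in Raji and 21.3 and 14.9 in L428-PAX5. The region at chr1:156571225-156572211 had 18.9 and 25.8 in Raji and 30.5 and 30.8 in L428-PAX5. Together with chr2:65454321-65455010 and the region on chromosome 9 at 37408849, it was among the top 10 shared regions with a higher mean percentile in L428-PAX5 than in Raji. The other 3 were chr9:131418815-131419529, chr8:101965177-101965989 and chrX:40028848-40029525, with values from 22.8 to 31.0 in Raji 1 and from 16.99 to 20.6 in L428-PAX5 1.

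Of the 5 top-50 L428-PAX5 regions with a Raji peak, 3 were the leading shared regions on chromosomes 3, 2 and 9 just named. The other 2, chosen after their values were seen, had a higher mean percentile in L428-PAX5. The region at chr8:145786376-145788313 had a −log10 p of 131.5 in L428-PAX5 1 and 114.0 in L428-PAX5 2, and of 7.53 in Raji 1 and 15.4 in Raji 2, where each list had 2 separate peaks in it. The region at chr3:113932340-113934049 had 44.7 and 28.2 in L428-PAX5 and 12.3 and 13.9 in Raji.

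The order of strength of shared regions was much the same in libraries of 1 line and hardly related across lines. Over the 239 regions, Spearman's correlation of the percentiles was 0.773 between the Raji libraries and 0.650 between those of L428-PAX5. Across lines it lay between 0.0864 and 0.152 in the 4 pairs, and the correlation of the line means was 0.135. These are descriptions over regions, which share their libraries and were selected for having a peak in all 4 lists. The median of the mean percentile was 78.7 in Raji and 70.3 in L428-PAX5. Of the 239 regions, 148 had the higher mean percentile in Raji and 91 in L428-PAX5. A percentile in a longer list spans more weak peaks, so percentiles were also ranked again among the peaks of the equal-length lists. Of the 151 shared regions there, 88 were then higher in Raji and 63 in L428-PAX5, with medians of 74.8 and 68.7, and the correlation of the line means was 0.0929.

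**Figure D3:**
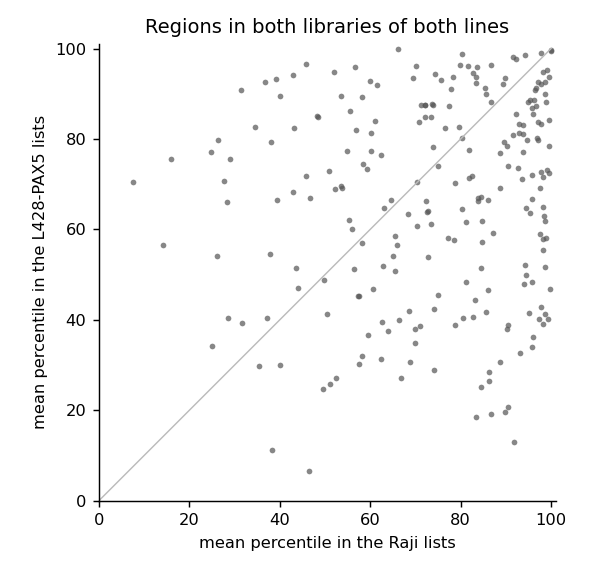
Mean percentile of each of the 239 shared regions in the Raji lists (horizontal axis) and in the L428-PAX5 lists (vertical axis), 1 point per region, with the line of equal percentiles. Only 15 regions reach a percentile of 90 in both lines, although 75 do so in Raji and 42 in L428-PAX5.

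Some shared regions were strong in 1 line and near the threshold in the other. The 5 with the widest gap toward Raji were chr1:229170763-229171633, chr1:192485875-192486435, chr11:81580240-81581436, chr11:123196041-123196641 and chr11:62608618-62609497. The first had a −log10 p of 14.6 and 28.5 in Raji and of 5.10 and 5.82 in L428-PAX5, or mean percentiles of 91.8 and 13.1. The other 4 had mean percentiles of 83.4 to 90.5 in Raji and of 18.5 to 20.7 in L428-PAX5. Such regions entered the shared class by a small margin, since the lists end at a −log10 p of 5.01.

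The 5 with the widest gap toward L428-PAX5 were chr17:4278302-4279005, chr19:10381544-10382562, chr17:17566508-17568893, chr17:29821985-29822970 and chr2:169051267-169052245. The first had values of 5.26 and 5.33 in Raji and of 11.1 and 8.10 in L428-PAX5, or mean percentiles of 7.66 and 70.5. The region at 29821985 on chromosome 17 had 5.38 and 10.0 in Raji and 25.1 and 12.9 in L428-PAX5. Of these 5 regions, 3 lay on chromosome 17, which held 17 of the 239 shared regions. Several of the 5 with the widest gap toward Raji lay on chromosome 11, which held 13. With 5 regions in each direction, no pattern by chromosome can be read from this. A gap of more than 50 percentile points in either direction was found in 30 of the 239 shared regions, and a gap of at most 10 points in 60.

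Peak centres in shared regions lay closer together within a line than across lines. The median distance between centres was 32.5 bp for the Raji libraries and 38 bp for those of L428-PAX5. Across lines the 4 medians were between 55 and 66.5 bp. Centres lay within 100 bp of each other in 80.3% and 81.2% of regions within a line, and in 61.9 to 67.8% across lines. Restricted to the 229 regions with 1 peak per library, the medians were 32 and 38 bp within and 52.5 to 63 bp across lines. L428-PAX5 peaks were wider, which widens the range of possible centres, and the part of width in these distances was not tested.

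Shared regions were also the strongest class by median −log10 p and the widest by median width of the merged region. The highest values of both L428-PAX5 lists, 220.3 and 169.2, lay in L428-PAX5-only regions. In Raji 1 the median −log10 p was 11.6 in shared and 7.81 in Raji-only regions, and in Raji 2 it was 16.03 and 12.19. In L428-PAX5 1 it was 11.5 in shared and 10.0 in L428-PAX5-only regions, and in L428-PAX5 2 it was 8.37 and 7.66. Regions found in 1 library alone were weakest, with medians from 5.99 to 6.68 over the 4 libraries. This order of the classes is partly built in, since weak peaks are more easily missed in a further library. Median width of the merged region was 754 bp in shared, 640 bp in L428-PAX5-only and 549 bp in Raji-only regions, against 533 bp over all regions. A merged region of 4 peaks tends to be wider than one of 2 by construction. Widths of single peaks in shared and line-specific regions had medians of 482 and 454 bp in Raji 1, of 539 and 477 bp in Raji 2, of 559 and 581 bp in L428-PAX5 1 and of 518 and 524 bp in L428-PAX5 2. Single peaks of shared regions were thus the wider ones in Raji and the narrower ones in L428-PAX5.

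Most line-specific regions had no peak centre of the other line within 10 kb. Regions overlapping or touching such a peak are outside these classes by definition, so low counts within 1 kb are partly built in. Of the 1689 Raji-only regions, 13 (0.770%) had the centre of an L428-PAX5 peak within 1 kb and 157 (9.30%) within 10 kb, and the median distance was 107 kb. Of the 2129 L428-PAX5-only regions, 8 (0.376%) had a Raji peak centre within 1 kb and 156 (7.33%) within 10 kb, with a median of 166 kb. In equal-length lists the medians were 204 and 244 kb. The distances shorten as the list of the other line gets longer, so the deposited lists cannot be compared between directions. The shares under random placement were not worked out, so these values do not show whether the sites of the lines kept apart.

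The chromosomes on which PAX5 peaks lay differed between the lines. On 15 of 23 chromosomes (65.2%) the shares of both L428-PAX5 lists lay on 1 side of both Raji lists, higher on 7 chromosomes (30.4%) and lower on 8 (34.8%). In equal-length lists this held for 21 of 23 (91.3%), higher on 9 (39.1%) and lower on 12 (52.2%), and all 15 kept their direction. If the order of the 4 libraries were random, such a separation would have a probability of 0.33 on each chromosome. Shares of 1 list also depend on one another, so not every separated chromosome need differ between the lines. Chromosome 9 carried 2.83% and 3.00% of the Raji peaks and 4.84% and 5.38% of the L428-PAX5 peaks. Chromosome 8 carried 4.31% and 4.42% in Raji and 6.22% and 7.13% in L428-PAX5. On chromosomes 8 and 9 the libraries of each line thus sat closer together than the lines did. This was not so everywhere. On chromosome 19 the deposited L428-PAX5 shares of 4.31% and 2.74% lay on both sides of those of Raji, 3.70% and 3.65%. In equal-length lists both L428-PAX5 shares there, 3.47% and 2.44%, lay below those of Raji, 3.70% and 3.82%.

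Chromosomes 2, 6, 12, 16 and 17 were the other ones with higher shares in L428-PAX5. Chromosome 13 lay at the other extreme, with 2.90% and 2.66% of the Raji peaks and 1.18% and 1.14% of the L428-PAX5 peaks. Chromosome 10 carried 5.35% and 5.10% in Raji and 3.84% and 2.98% in L428-PAX5, and chromosome 11 carried 5.96% and 5.58% against 4.02% and 3.84%. Chromosomes 1, 3, 14, 18 and 22 were also lower in L428-PAX5. The numbers of DNA copies of these chromosomes in each line, which the input libraries could show, were not analysed here, and their part in the shares was not tested.

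**Figure D4:**
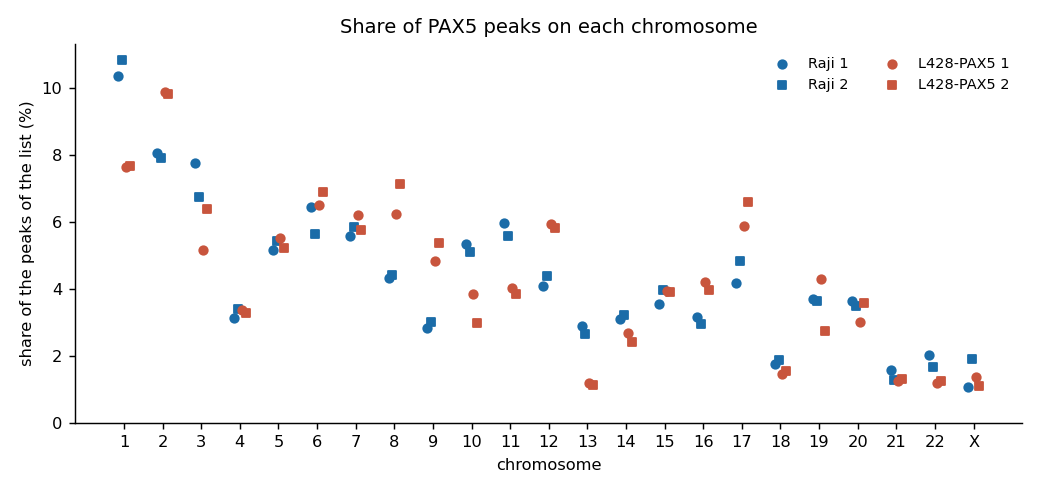
Share of the peaks of each deposited list (vertical axis, percent) on chromosomes 1 to 22 and X (horizontal axis), 1 point per library. Chromosomes 8 and 9 are highest in L428-PAX5 relative to Raji, chromosome 13 is lowest, and chromosomes such as 4, 5 and 15 show no separation.

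The line-specific classes, built from the same peaks and so no separate evidence, went the same way on the chromosomes with the largest differences. Of the 3818 line-specific regions, 55.8% were L428-PAX5-only. On chromosome 9, 115 were L428-PAX5-only and 45 Raji-only (71.9%, exact 95% interval 64.2 to 78.7%). On chromosome 8 the numbers were 166 and 74 (69.2%, 62.9 to 74.9%) and on chromosome 16 they were 90 and 42 (68.2%, 59.5 to 76.0%). On chromosome 13 there were 24 L428-PAX5-only and 53 Raji-only regions (31.2%, 21.1 to 42.7%), and on chromosome 22 there were 24 and 38 (38.7%, 26.6 to 51.9%). On some separated chromosomes the interval included the 55.8% of all line-specific regions. Examples are chromosome 6, higher in L428-PAX5 by share of peaks (53.5 to 65.9%), and chromosome 18, lower by that share (37.5 to 64.1%). Shared regions were few on each chromosome, from 1 on chromosome 13 to 26 on chromosome 1.

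Line-specific regions were also counted in windows of 2 Mb. Among 1351 windows with any region, 864 held an L428-PAX5-only region, 755 a Raji-only region and 512 both kinds. How many would hold both kinds under random placement was not worked out, so these counts do not show whether the lines kept apart. The deposited lists used here gave more L428-PAX5-only than Raji-only regions, which bears on the next counts. There were 33 windows with at least 5 L428-PAX5-only and no Raji-only region, and 16 with at least 5 Raji-only and no L428-PAX5-only region. The fullest was chromosome 8 from 144 to 146 Mb, with 14 L428-PAX5-only and 2 shared regions. In that window the lists held 3 peaks in Raji 1, 7 in Raji 2, 46 in L428-PAX5 1 and 16 in L428-PAX5 2. Chromosome 9 from 132 to 134 Mb had 13 L428-PAX5-only and no Raji-only region, with 1 and 4 peaks in Raji and 21 and 17 in L428-PAX5.

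On the Raji side, chromosome 19 from 10 to 12 Mb held 15 Raji-only and 2 L428-PAX5-only regions, with 18 and 26 peaks in Raji and 13 and 5 in L428-PAX5. Chromosome 3 from 186 to 188 Mb held 14 and 2, with 18 and 27 peaks in Raji and 6 and 5 in L428-PAX5. Chromosome 1 from 8 to 10 Mb held 10 Raji-only and no L428-PAX5-only region, with 14 and 21 peaks in Raji and 5 and 0 in L428-PAX5. Chromosome 16 from 10 to 12 Mb was dense in both lines and yet mostly at different positions, with 9 Raji-only, 11 L428-PAX5-only and 1 shared region.

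PAX5 regions of L428-PAX5 lay near chromosome ends more often than those of Raji. The end of a chromosome was taken as position 0 and as the largest peak end in any of the 4 lists. Within 2 Mb of an end lay 4.45% of the peaks of Raji 1 and 3.90% of Raji 2, against 6.51% of L428-PAX5 1 and 5.52% of L428-PAX5 2. Within 5 Mb the shares were 9.16%, 8.57%, 13.6% and 12.0%. Both L428-PAX5 libraries were above both Raji libraries at either distance, also in equal-length lists, where the shares within 5 Mb were 9.16%, 8.38%, 15.2% and 12.4%.

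By class, 4.39% of Raji-only (exact 95% interval 3.46 to 5.48%) and 6.12% of L428-PAX5-only regions (5.14 to 7.23%) lay within 2 Mb, the main distance. Shared regions were at 6.78% (3.92 to 10.8%), and the intervals of all 3 classes overlapped. In equal-length lists those of the line-specific classes did not, at 3.90% (2.97 to 5.02%) and 6.64% (5.38 to 8.09%). Within 5 Mb lay 8.78% of Raji-only regions (7.47 to 10.2%) and 13.5% of L428-PAX5-only regions (12.0 to 15.0%). Shared regions were at 11.9% there (8.03 to 16.7%), against 11.1% of all regions. With every chromosome weighted by its share of all regions, the values were 8.98%, 13.6% and 13.5%, and the gap between the line-specific classes was about as wide as without weights. On 15 of 23 chromosomes the mean share of the L428-PAX5 libraries within 5 Mb was the higher one. The interval of the shared regions overlapped those of both line-specific classes.

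**Figure D5:**
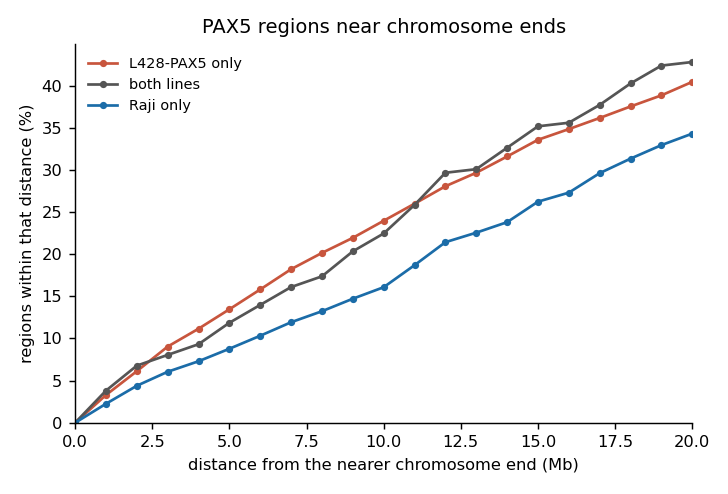
Percent of regions of each class (vertical axis) within a given distance of the nearer chromosome end (horizontal axis, Mb). The line of L428-PAX5-only regions runs above that of Raji-only regions at every distance drawn above 0, with 13.5% against 8.78% within 5 Mb and 24.0% against 16.1% within 10 Mb.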

How the data were processed

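PAX5 immunoprecipitates of Raji and L428-PAX5 cells, 2 libraries per line, were compared, with groups taken from sample titles. The authors deposited 1 peak list per library with a p-value per peak. Per the submitters' processing notes, BWA 0.5.9-r16, CASAVA 1.8 and 1.3 and the build hg19 were used, and the peak names in the files carry the name PeakRanger. Sources used here do not state the caller's settings or any use of input. Positions are also as the authors deposited them. The Namalwa lists and the 6 input libraries were not used.

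Peaks that overlapped by at least 1 bp or touched were merged over the 4 lists. For a region with several peaks of a library, the one with the lowest p was used, and ties at the limit of the equal-length lists were cut by position. Strength classes of equal-length lists keep the percentile of the full list. Shares carry Clopper-Pearson 95% intervals. Members, lists and rules were chosen with earlier results of these data known. Named were the 10 regions of each class with the highest mean percentile, and 5 shared regions with the widest gap in each direction. Planned gene, promoter and motif comparisons, with their gene lists, were not run, since no hg19 annotation or sequence was at hand. Merging and counting were tested on simulated lists. The scripts ran on scipy 1.17.1, pandas 2.3.3 and numpy 2.4.6 under Python 3.11.15, with matplotlib 3.10.9 for figures.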

Additional observations from a re-analysis of the deposited data

How the results depend on the processing

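Of 201 recomputed values, 134 stayed within the SD over pairs, the interval or 1.5 times the count, and 67 moved, 21 of them with a library left out. Read depth, which can affect how many peaks a list holds, is unknown, and its part in the list lengths was not tested. The top 100 Raji regions were found in the other line more often than the top 100 of L428-PAX5 in all 10 alternatives, and L428-PAX5-only regions lay near ends more often than Raji-only ones in all 12. L428-PAX5-only regions outnumbered Raji-only ones in 7 of 10, and not with equal-length lists, with p at or below 1e-10 or without Raji 1. The strongest Raji class was found more often than the weakest in all 10, and the strongest L428-PAX5 class in 9, not with p at or below 1e-10. Chromosomes whose shares did not overlap numbered 15 in the deposited lists, 21 at equal length and 16 to 22 with a library left out. No paired analysis was possible because no value comes from a test that a replicate block could enter. As a description, the pairs of same-numbered libraries alone gave a mean index of 0.0580. Gene start, gene list and motif alternatives were not run. The limits at 100 to 2000 peaks, at a −log10 p of 15, 20 and 30, the 10 Mb distance, the chromosome weights, the top 50 to 500 regions and the renewed ranking of shared regions were chosen after seeing the data.

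With equal-length lists the indices within Raji, within L428-PAX5 and across lines were 0.502, 0.435 and 0.0519, with 1375 L428-PAX5-only and 151 shared regions. Raji regions were then found in L428-PAX5 at 15.6% (any), 8.70% (both), 9.68% (weakest class) and 26.7% (strongest), and L428-PAX5 regions in Raji at 12.8%, 8.86% (weakest) and 13.2% (strongest). With p at or below 1e-10 the index was 0.354 within Raji and 0.0427 across, with 575 Raji-only, 536 L428-PAX5-only and 46 shared regions. The Raji shares were 15.6%, 6.75%, 10.5% and 25.3%, and 32% for the top 100, and the L428-PAX5 shares 12.3% (any), 7.53% (both) and 9.15% (strongest), below the 11.1% of the weakest class there. With the better 50% of each list the index across was 0.0499, with 902, 1115 and 106 regions. The shares were 19.2% (any), 9.50% (both) and 12.9% (weakest) for Raji and 12.3%, 8.33% (both) and 12.9% (strongest) for L428-PAX5. Fewer peaks enter these 3 settings by construction. The indices within Raji and L428-PAX5 were 0.377 and 0.324 with centres within 200 bp, where 20.6% of Raji regions were found, and 0.375 and 0.328 with a reciprocal overlap of 50%. Within 1 Mb of an end lay 2.26%, 3.30% and 3.81% of Raji-only, L428-PAX5-only and shared regions, and within 5 Mb 8.78%, 13.5% and 11.9%.

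With each library left out in turn, Raji-only regions numbered 1728 to 4119, L428-PAX5-only regions 2145 to 5372 and shared ones 254 to 454. The demand on a region is then looser. Raji regions were found in L428-PAX5 at 12.6 to 21.2% (any), 6.94 to 20.8% (all), 6.59 to 14.9% (weakest), 22.2 to 34.0% (strongest) and 38 to 57% (top 100). L428-PAX5 regions were found in Raji at 10.2 to 13.8%, 7.37 to 13.8%, 8.84 to 13.0% (weakest) and 12.9 to 17.5% (strongest).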

Other observations

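Of the 11352 merged regions, 12 lay on unplaced or unlocalized contigs. Of these, 3 were shared, 1 was Raji-only and 1 L428-PAX5-only, and the other 7 were in none of the 3 classes. Shared regions made up 2.11% of all regions, but 3 of 12 rests on too few regions for an enrichment to be read from it.

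A few peaks ended exactly at a multiple of 10000 bp and were very wide. There were 2 in Raji 2, with a median width of 8076 bp, and 4 in L428-PAX5 2, with a median of 7336 bp, and 0 in each of the other 2 lists.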
